A study of Mus musculus with 22 samples.

Results

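The genes of the integrins, the laminins and the nidogens were followed through normal skin, cultured MC38 cells and subcutaneous MC38 tumors. Members were chosen by symbol alone, as the genes named Itga or Itgb, the genes named Lama, Lamb or Lamc with a number, and Nid1 and Nid2. The integrin-named genes Itgb1bp1, Itgb1bp2, Itgb3bp and Itgbl1, which encode no integrin chain, were left out. The rule gave 40 genes of the 46882 in the table: 18 integrin alpha and 9 integrin beta genes, 5 laminin alpha, 3 laminin beta and 3 laminin gamma genes, and 2 nidogens. The rule used no measured value, though it was set with earlier results of these data known.

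MC38 is a transplantable mouse colon carcinoma line of C57BL/6 origin, and RNA was measured with QuantSeq, which reads the 3′ end of each transcript. The 16 libraries comprised 2 of MC38 cells labelled C57BL/6N at day 0, 2 of skin of wild-type C57BL/6N mice labelled day 23, and 12 of MC38 tumors from 8- to 12-week-old mice, the age also given for the skin. Wild-type C57BL/6N hosts gave 3 tumors at day 23 and 3 at day 46 after injection, and RAG1-/- hosts of the strain B6.129S7-Rag1tm1Mom/J, which form no mature T and B cells, gave 3 tumors at day 13 and 3 at day 23. All tumors grew from the same line, so the hosts differed in Rag1 and in strain background together, and these cannot be told apart. The labels name no treatment in these groups.

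Integrins are receptors made of an alpha and a beta chain that link the matrix, or a ligand on another cell, to the actin cytoskeleton. Leukocytes use the beta chain of Itgb2 to adhere to endothelium and to each other, other integrins bind collagen, laminin or ligands with an arginine-glycine-aspartate (RGD) motif such as fibronectin, and many alpha chains pair with the beta chain of Itgb1. Laminins are trimers of an alpha, a beta and a gamma chain that polymerize into the basement membrane, the sheet under epithelia and around vessels and muscle fibers, and nidogens tie the laminin sheet to type IV collagen. The skin basement membrane is anchored to keratinocytes by hemidesmosomes, which contain the Itga6 and Itgb4 chains and bind a laminin that includes the Lama3 and Lamb3 chains.

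The sequences before the transcription starts are shown for the myeloid alpha chains Itgam and Itgax, which went from nearly no reads in MC38 cells to at least 302 normalized counts in every tumor, and for Itgb5, the member that differed between hosts. They are the 250 bases before the start in the RefSeq promoter table (GRCm38.p6), all on the plus strand: chr7:128062390-128062639 for Itgam, chr7:128129300-128129549 for Itgax and chr16:33829415-33829664 for Itgb5. The table held promoters for 25 of the 40 members. Capitals mark every match, on either strand, to GAGGAA (the box of the myeloid factor PU.1), TGANTCA (the AP-1 site) and GGGCGG (the GC box). PU.1 belongs to the ETS family, and the shorter GGAA core of sites of that family was not searched.
Itgam: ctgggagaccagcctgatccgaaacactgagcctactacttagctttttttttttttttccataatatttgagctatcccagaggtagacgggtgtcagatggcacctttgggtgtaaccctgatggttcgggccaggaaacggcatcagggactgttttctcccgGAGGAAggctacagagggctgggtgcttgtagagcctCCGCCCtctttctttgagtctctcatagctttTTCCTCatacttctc
Itgax: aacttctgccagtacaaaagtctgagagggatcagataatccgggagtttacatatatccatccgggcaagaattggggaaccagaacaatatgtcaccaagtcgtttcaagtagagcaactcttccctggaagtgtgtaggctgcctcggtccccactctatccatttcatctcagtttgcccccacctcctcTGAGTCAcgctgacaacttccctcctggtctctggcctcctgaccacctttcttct
Itgb5: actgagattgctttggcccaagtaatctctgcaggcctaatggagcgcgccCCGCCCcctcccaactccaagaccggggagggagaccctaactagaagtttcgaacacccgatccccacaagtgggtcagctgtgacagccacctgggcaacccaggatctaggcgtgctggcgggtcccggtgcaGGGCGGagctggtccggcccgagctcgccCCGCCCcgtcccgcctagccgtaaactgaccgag
The Itgam window held 2 matches to GAGGAA, 84 and 15 bases before the start, and 1 to GGGCGG. The Itgax window held no GAGGAA or GGGCGG and 1 match to TGANTCA, 56 bases before the start. The Itgb5 window held 3 matches to GGGCGG and none to the other motifs, and no matches overlapped in these windows. Of 32851 promoters of the same length in the table, 23.3% held GAGGAA, 6.75% TGANTCA and 32.7% GGGCGG. Of the 28 promoters of members, 15 held GAGGAA, 1 TGANTCA and 10 GGGCGG. A match is a run of letters and not a measured site.

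Libraries held 5589151 to 26134241 reads on genes. A count of 3 reads, taken as the detection floor, stood at 1.33 to 6.38 normalized counts, the unit of every level given here. A QuantSeq read stands for a transcript end and not for a length of RNA, so levels of different genes are set side by side as reads per transcript. The skin libraries carried skeletal muscle RNA (summed level of 8 muscle markers 82076 to 126504) and the male transcript Ddx3y at 1803 and 1919, whereas Xist, read in every tumor, was at 0 in them, so sex differed between skin and tumors. RAG1-/- day 13 tumors 1 and 3 carried muscle RNA (Acta1 4374 and 4965, against 10.6 to 665 in the other tumors), and wild-type day 23 tumor 2 carried keratinocyte RNA (Krt5 136, against 0 to 1.95 in the others). Colon epithelial markers were at or near the floor in the cells (10 genes, summed level 8.56 to 12.7). Of the T cell markers, Cd3e, Cd3g, Cd8b1 and Trac were at 0 reads in all 6 RAG1-/- tumors, while Lck and Cd4 were read in all 6, at up to 20 and 16.2. Cd3g was also at 0 in wild-type day 23 tumor 2. Rag1 itself was read at 1.07 to 11.4 in the RAG1-/- tumors, which does not check the genotype because a 3′ read need not lie in the deleted part.

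In MC38 cells, 16 of the 40 members were at or under the floor in both libraries, 11 of them with no read, while 37 members were above it in both skin libraries. The members above the floor in MC38 cells were led by Itgb1, Lamb1, Itgav and Lamc1. By limma on log2(normalized count + 1), with Benjamini-Hochberg adjustment over all 16780 genes tested, 3 of 37 tested members were higher in MC38 cells than in skin (20.8% of all genes were) and 29 were lower (41.2% of all genes). The median member difference was -4.17 on the log2 scale, or -3.49 with the 9 members at 0 in MC38 cells set at their bound of 3 reads, beside -0.4 over all genes tested. In tumors against MC38 cells, 17 of 32 tested members were higher (18.2% of all 14708 genes) and 0 were lower (9.43% of all genes), with a median of 1.08 with or without bounds, beside 0.05 over all genes. At an unadjusted p under 0.05, 19 of the 32 members and 5611 of all 14708 genes differed, and edgeR and DESeq2 on the recovered reads also called 0 members lower. In tumors against skin, 10 of 37 tested members were higher (24.4% of all 16259 genes) and 22 were lower (36.3% of all genes), with a median of -1.59 beside -0.19. Without overlap between groups, 5 members lay above skin and 31 below it in MC38 cells (30.6% and 51.4% of all genes), 15 lay above MC38 cells and 0 below in tumors (16.1% and 10.2% of all genes), and 7 lay above skin and 21 below in tumors (19.8% and 32.6% of all genes). The comparisons share the MC38 and skin libraries, and a member read in only one group enters the test through that group.

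With 2 libraries each of skin and MC38 cells, these counts moved with single libraries, and so did those of all genes. Without either skin library, 19 members were lower in MC38 cells than in skin, while the genes lower among all tested went from 6920 to 4031 without replicate 1 and 4120 without replicate 2. Without either MC38 library only Lamb1 stayed among the members called higher, and all higher genes went from 3482 to 1827 or 1858. The members higher in tumors than in MC38 cells were 11 without MC38 replicate 1 and 13 without replicate 2, and all higher genes went from 2679 to 1716 and 1678. Against skin, 6 members were higher without skin replicate 1 and 13 lower without skin replicate 2, where all higher genes went from 3968 to 3124 and all lower genes from 5898 to 4472. Scaling every library to the same total moved the median of all genes in MC38 minus skin from -0.4 to 0.01, turning 3482 higher and 6920 lower genes into 4985 and 5764. In tumors minus skin the same scaling moved that median from -0.19 to 0.2, and 3968 higher and 5898 lower genes became 5763 and 4445. In tumors minus MC38, scaling to the upper quartile moved it from 0.05 to 0.18, and 2679 higher and 1387 lower genes became 2959 and 686.

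**Figure D1:**
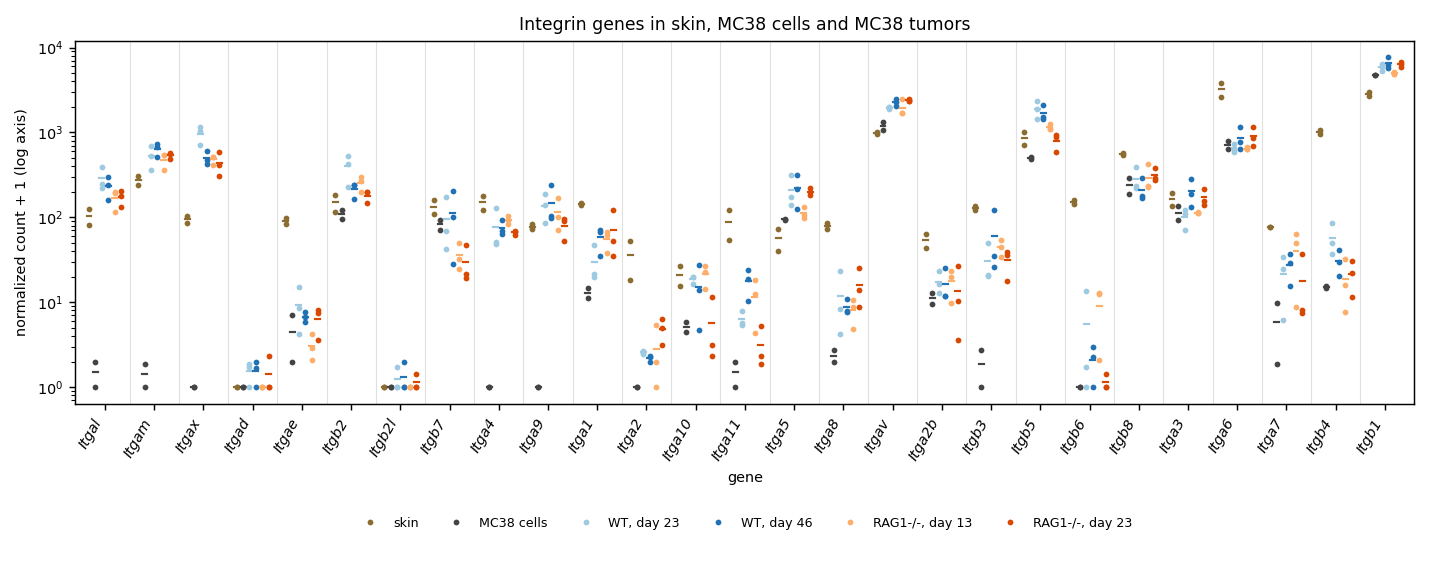
Normalized count + 1 (log axis) of the 27 integrin genes in each library, colored by group, with short lines at group means. The leukocyte chains Itgal, Itgam and Itgax stand near 1 in MC38 cells and at 114 or more in every tumor, while Itga6 and Itgb4 are highest in skin.

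Of 6 tested leukocyte integrins, 4 were higher in tumors than in MC38 cells (18.2% of all genes were). Itgax, the alpha chain known as CD11c on dendritic cells and macrophages (chr7:128129547-128150657, GRCm38), had no read in either MC38 library and 102 and 85.4 normalized counts in skin. It stood at 1030.4, 701 and 1144 in wild-type day 23 tumors, 477, 603 and 428 at day 46, 417, 515 and 515 in RAG1-/- day 13 tumors and 302, 411 and 580.2 at day 23. The mean tumor level was at least 216-fold higher than the floor of 3 reads in MC38 cells, and it exceeded skin by 2.55 on the log2 scale (SE 0.23, adjusted p = 2.77e-07, limma). Every tumor was above both skin libraries.

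Itgam, the CD11b chain of monocytes, macrophages and neutrophils (chr7:128062640-128118491), was read once in MC38 cells over both libraries, at 0.856 and 0, and at 242 and 309.8 in skin. Tumors ranged from 358 to 729 (median 537), all above skin, with a log2 difference of 0.96 (SE 0.22, adjusted p = 0.00178) that gave adjusted p = 0.0593 without skin replicate 1. Itgal, the alpha chain of the lymphocyte receptor for ICAM-1, was at 0 and 0.978 in MC38 cells, at 80.4 and 124 in skin and at 114 to 394 in tumors (median 202). Its tumor and skin ranges overlapped, and the difference from skin was 1.02 (SE 0.3, adjusted p = 0.00869, and 0.177 without skin replicate 1).

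Itgb2, the shared beta chain of these receptors, differed from its partners in being read in the cell line, at 121 and 93.8 normalized counts (142 and 96 reads). Tumors ranged from 147 to 534 (median 235), above both MC38 libraries by a log2 difference of 1.18 (SE 0.26, adjusted p = 0.00238, and 0.0865 without MC38 replicate 2). Against skin the difference was 0.75 (SE 0.29, adjusted p = 0.0351, and 0.414 without skin replicate 1). Itgb7, the beta chain that pairs with Itga4 and Itgae on lymphocytes, was likewise read in MC38 cells at 92.4 and 70.4, and tumors at 18.3 to 206 overlapped them. Pan-leukocyte markers were at a summed level of 0.978 to 4.28 in the same MC38 libraries, with Coro1a, Laptm5 and Cd53 at 0 and Ptprc at 0 and 0.978. No other annotated gene overlapped the last 500 exonic bases of Itgb2 or Itgb7. Itgae, the alpha chain of epithelial resident T cells, was at 97.8 and 81.6 in skin and at 1.11 to 14 in tumors, a log2 difference of -4.02 (SE 0.5, adjusted p = 8.46e-06). Itgad and Itgb2l were at or under the floor in every library.

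Marker lists of leukocytes were set beside these chains. The 5 pan-leukocyte markers summed to 4092 to 7595 in tumors and 9 monocyte and macrophage markers to 10216 to 22659, and all 5 and all 9 were called higher than in MC38 cells. Of the other leukocyte lists, 3 of 4 tested neutrophil, 2 of 7 T cell, 2 of 2 B cell and 1 of 2 dendritic cell markers were called higher. Of 2 tested NK cell markers, 1 was higher and 1 lower, the latter Eomes, at 189.9 and 235 in MC38 cells. Over all genes tested, 18.2% were higher and 9.43% lower. In bulk tumor RNA, more cells of a type and more RNA per cell cannot be told apart, and the part of these cells in the integrin levels was not tested.

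The alpha chains Itga4 and Itga9, whose integrins bind VCAM-1, fibronectin and tenascin, had no read in MC38 cells. Itga4 stood at 121 and 177 in skin and at 46.9 to 129 in tumors (median 67.6), at least 28-fold higher than the MC38 floor. Itga9 stood at 72.3 and 81.6 in skin and at 51.1 to 241 in tumors (median 98.6), at least 43.2-fold higher than the floor. Skin and tumor ranges overlapped for both, with a call for Itga4 only (log2 -0.98, SE 0.34, adjusted p = 0.021, and 0.23 without skin replicate 2).

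Itgb1, the beta chain shared by most matrix receptors (chr8:128685654-128733200), had the highest level of all members in MC38 cells and in every tumor. It was at 2695 and 3005 in skin, 4713 and 4769.7 in MC38 cells, 5895, 5295 and 6419 in wild-type day 23 tumors, 7687, 5739 and 6271 at day 46, 4880, 4861 and 5159 in RAG1-/- day 13 tumors and 5934, 6432 and 6784 at day 23. Every tumor exceeded both MC38 libraries and these exceeded skin, but tumors minus MC38 did not pass the test (log2 0.31, SE 0.13, adjusted p = 0.0751, and 0.0455 by DESeq2), whereas tumors minus skin did (1.05, SE 0.13, adjusted p = 5.85e-06). MC38 minus skin was 0.74 (SE 0.12, adjusted p = 0.00491, and 0.0533 or 0.0524 without MC38 replicate 1 or 2). The share of Itgb1 in all integrin beta reads was 48.9% ± 4.02 (SD, n = 2) in skin, 83.5% ± 1.41 (n = 2) in MC38 cells and 74.4% ± 5.81 (n = 12) in tumors.

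The collagen-binding alpha chains were low in the cell line and in tumors. Itga1, a collagen receptor of smooth muscle and fibroblasts, was at 139 and 145 in skin, 10.3 and 13.7 in MC38 cells and 19 to 121 in tumors (median 49.3), higher than in MC38 cells (log2 1.87, SE 0.45, adjusted p = 0.00432) and lower than in skin (-1.6, SE 0.46, adjusted p = 0.00765). The call against MC38 cells was lost without MC38 replicate 1 (adjusted p = 0.0879), and the call against skin without skin replicate 1 (0.0659) or 2 (0.076). Itga11, a fibroblast receptor of fibrillar collagen, fell from 121 and 53.5 in skin to 0.884 to 22.8 in tumors (log2 -3.47, SE 0.57, adjusted p = 0.000117). Over MC38 cells, at 0 and 0.978, it differed by 2.39 (SE 0.66, adjusted p = 0.0119, and 0.189 without MC38 replicate 1). Itga2, of platelets and epithelia, had no read in MC38 cells, reached 5.3 in tumors and was at 17.4 and 52.3 in skin. Itga10, a cartilage collagen receptor, was at 3.42 and 4.89 in MC38 cells and at 1.31 to 26.4 in tumors (adjusted p = 0.174).

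Among the RGD-binding chains, Itgav, Itga5 and Itgb5 were higher in tumors than in MC38 cells and than in skin. Itgav, the alpha chain of vitronectin receptors and of activators of latent TGF-beta (chr2:83724397-83806916), was at 1021 and 951 in skin, 1312 and 1069 in MC38 cells, 1892, 2005 and 1990.1 in wild-type day 23 tumors, 2304, 2057 and 2461 at day 46, 2470, 1693 and 1706 in RAG1-/- day 13 tumors and 2507, 2328 and 2339.7 at day 23. No tumor overlapped the skin or MC38 libraries, with log2 differences of 0.84 (SE 0.14, adjusted p = 0.00018) from MC38 cells and 1.11 (SE 0.13, adjusted p = 6.33e-06) from skin. Itgav made up 17.5% ± 3.38 of all integrin alpha reads in skin (SD, n = 2), 55.4% ± 1.85 in MC38 cells (n = 2) and 43.7% ± 5.1 in tumors (n = 12).

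Itgb5, which pairs with the Itgav chain to bind vitronectin (chr16:33829665-33949338), was at 1019 and 713 in skin and 487 and 509 in MC38 cells. Every tumor, at 581 to 2337 (median 1346), was above both MC38 libraries (log2 1.37, SE 0.19, adjusted p = 2.32e-05). Set against MC38 cells apart, wild-type tumors were higher by 1.82 (adjusted p = 1.77e-06) and RAG1-/- tumors by 0.92 (adjusted p = 0.00261). Against skin, wild-type tumors were higher by 1.04 (adjusted p = 0.00117), and the difference of RAG1-/- tumors was 0.15 (adjusted p = 0.586). Pooled over hosts it was 0.6 (SE 0.21, adjusted p = 0.0237), and 0.34 (adjusted p = 0.36) without skin replicate 2.

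Itga5, the alpha chain of the main fibronectin receptor, was at 72.3 and 39.5 in skin, 93.3 and 95.8 in MC38 cells and 97.8 to 312 in tumors (median 176). The difference from MC38 cells, 0.86 (SE 0.29, adjusted p = 0.0376), was lost without MC38 replicate 1 (adjusted p = 0.21) or 2 (0.204), and the difference from skin was 1.67 (SE 0.34, adjusted p = 0.000633). Itgb3, the beta chain of platelets, endothelium and osteoclasts, was at 1.71 and 0 in MC38 cells, 17 to 119.5 in tumors and 134 and 119.8 in skin. It was higher in tumors than in MC38 cells (log2 4.46, SE 0.55, adjusted p = 5.72e-06) and lower than in skin (-1.82, SE 0.52, adjusted p = 0.00737, and 0.0808 or 0.0611 without skin replicate 1 or 2). Itga8, an alpha chain of smooth muscle and mesenchyme, was at 85.7 and 71.4 in skin, 1.71 and 0.978 in MC38 cells and 3.17 to 24.3 in tumors. Itgb8, a TGF-beta activating chain, was at 287 and 189.7 in MC38 cells, 170.1 to 420.4 in tumors and 572 and 543 in skin, with a call against skin only (log2 -1.08, SE 0.27, adjusted p = 0.00341, and 0.053 without skin replicate 1). Itgb6, an epithelial chain, was at 157 and 142 in skin and at 0 in MC38 cells, and the platelet chain Itga2b was at 2.62 to 25.5 in tumors. Fn1, the gene of the ligand fibronectin, was at 1027 ± 40.1 (SD, n = 2) in MC38 cells and 10329.8 ± 6426 (n = 12) in tumors.

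Of the 4 laminin-binding chains, 3 were lower in tumors than in skin (36.3% of all genes were), and Itga3 did not pass the test. Itga6 (chr2:71745616-71858416) was at 2639 and 3832 in skin, 785 and 634 in MC38 cells and 585 to 1165 in tumors (median 682). Tumor and MC38 ranges overlapped (log2 0.07, SE 0.2, adjusted p = 0.829), and every tumor was below skin (-2.1, SE 0.21, adjusted p = 1.16e-06). Itgb4, its hemidesmosomal partner, was at 1058 and 949.7 in skin, 13.7 and 14.7 in MC38 cells and 6.67 to 84 in tumors (median 29), a log2 difference from skin of -5.24 (SE 0.5, adjusted p = 6.09e-07). The share of Itga6 in integrin alpha reads was 56.1% ± 6.65 in skin (SD, n = 2), 33% ± 1.29 in MC38 cells (n = 2) and 15.4% ± 3.14 in tumors (n = 12). Col17a1, the transmembrane collagen of hemidesmosomes, was at 2227 ± 944 in skin and 2.26 ± 4.76 in tumors, while Cd151, the tetraspanin partner of laminin-binding integrins, was at 1321 ± 247 and 1425 ± 226. The hemidesmosome partner Dst was at 4488 and 6827 in skin and 706 to 1339 in tumors. Plec, another such partner, was at 2455 and 2376 in skin and 1119 to 3419.7 in tumors. The 8 keratinocyte markers summed to 286189 to 296652 in skin, and 311 to 312 in MC38 cells.

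Itga3, another laminin receptor chain, was at 194 and 136 in skin, 91.6 and 134 in MC38 cells and 69 to 284 in tumors, which surrounded both, and it passed no test among them (adjusted p 0.19 to 0.479). Itga7, the laminin receptor of muscle, was at 75 and 76.5 in skin, 0.856 and 8.8 in MC38 cells and 5.11 to 61.9 in tumors. Its highest tumor values, 49.2 and 61.9, were in RAG1-/- day 13 tumors 1 and 3, the tumors with the most Acta1, and the third tumor of that group had 7.78 with Acta1 at 152. The part of muscle RNA in it was not tested. The tumor call over MC38 cells (log2 2.27, SE 0.81, adjusted p = 0.0462) was lost without MC38 replicate 1 (1.07, adjusted p = 0.579), and the call below skin (-1.9, SE 0.78, adjusted p = 0.0481) without skin replicate 1 (adjusted p = 0.204) or 2 (0.214).

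**Figure D2:**
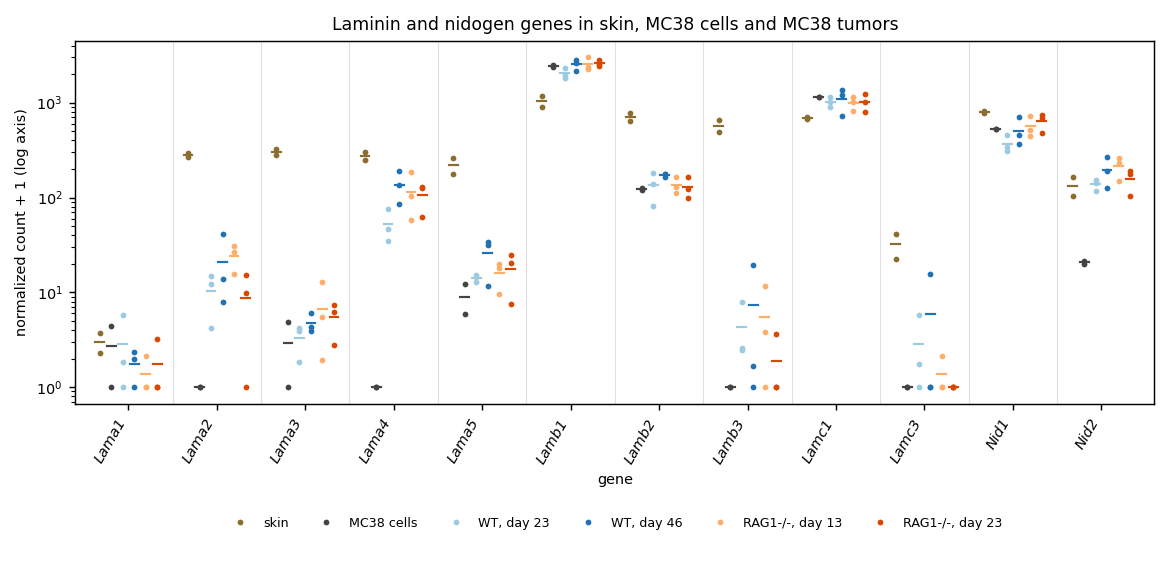
Normalized count + 1 (log axis) of 10 laminin and 2 nidogen genes in each library, colored by group, with short lines at group means. Lama2, Lama4 and Lamb3 are at 1 (no read) in MC38 cells, where Lamb1 and Lamc1 are at 1142 to 2499.

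MC38 cells read laminin beta chains with almost no alpha chain. The 5 alpha genes summed to 14.5 and 8.8 normalized counts in the MC38 libraries, against 2624 and 2502 for the 3 beta genes. In skin the alpha sums were 1088 and 1067 and the beta sums 2300 and 2328. In tumors the alpha sums were 60.5 to 265 and the beta sums 1914 to 3135. For the alpha sums the 3 kinds of sample did not overlap, while the beta sums of tumors surrounded those of MC38 cells and of skin.

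Lama4, the alpha chain of vessel walls, muscle and fat (chr10:38965515-39110188), was the leading alpha gene of tumors. It had no read in MC38 cells and 249 and 298 normalized counts in skin, and stood at 74.5, 34.1 and 46 in wild-type day 23 tumors, 85, 189 and 134 at day 46, 102, 56.7 and 184 in RAG1-/- day 13 tumors and 61.5, 128 and 125 at day 23. The mean tumor level was at least 37-fold higher than the MC38 floor, and every tumor was below skin (log2 -1.59, SE 0.42, adjusted p = 0.00449, and 0.0766 without skin replicate 2). Lama4 gave 70.9% ± 9.68 of tumor laminin alpha reads (SD, n = 12) and 25.4% ± 3.57 of those of skin (n = 2). The 7 endothelial markers summed to 9.41 to 14.7 in MC38 cells, with Kdr, Tek, Emcn and Tie1 at 0. In tumors they summed to 558 to 1538, and all 7 were called higher (18.2% of all genes were). Their part in the Lama4 level was not tested.

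Lama2, the alpha chain of muscle and nerve basement membrane, was at 292 and 269 in skin, at 0 in MC38 cells and at 0 to 40.3 in tumors (median 13.4). The tumor mean was at least 5.49-fold higher than the MC38 floor, but the call over MC38 cells was lost without MC38 replicate 1 (adjusted p = 0.0538) or 2 (0.0563), and 18.6% of the last 500 exonic bases of Lama2 lie opposite Gm48084. Lama5, the broadly expressed alpha chain of mature epithelia and vessels, was at 261 and 175 in skin, 11.1 and 4.89 in MC38 cells and 6.55 to 33.2 in tumors, a log2 difference from skin of -3.68 (SE 0.51, adjusted p = 2.42e-05). Lama1, of embryonic basement membranes, was at 0 to 4.75 in all libraries.

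**Figure D3:**
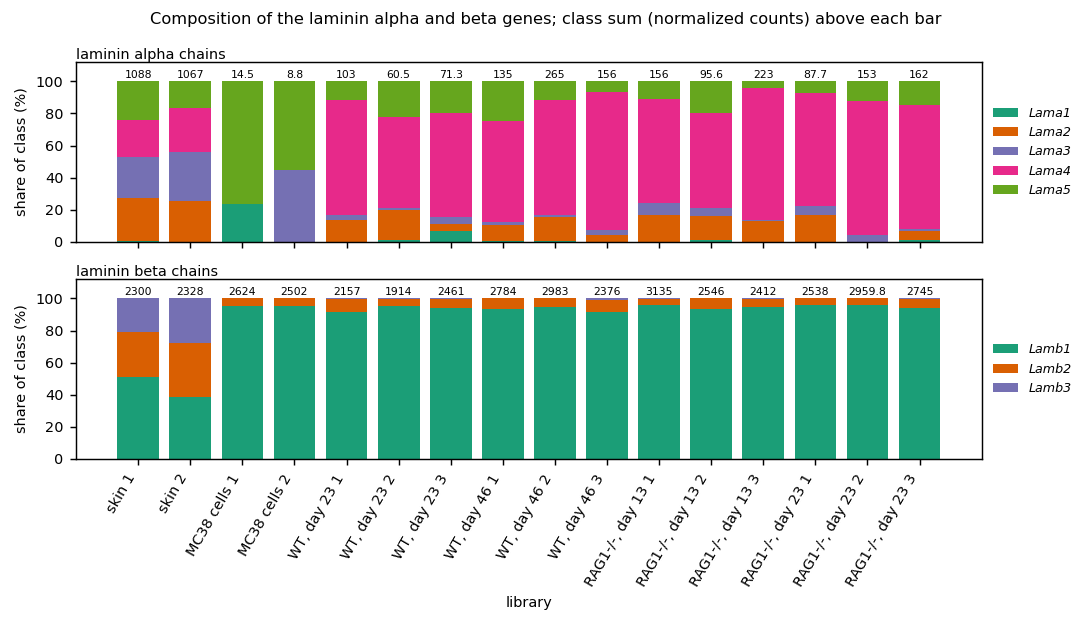
Share of each gene in the laminin alpha and beta reads of each library (stacked bars, percent), with the class sum in normalized counts above each bar. Skin is split among 4 alpha and 3 beta chains, tumors are mostly Lama4 and Lamb1, and the MC38 alpha bars rest on sums of 14.5 and 8.8.

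Lamb1 and Lamc1, the common beta and gamma chains, carried most of the laminin reads of both the cell line and the tumors. Lamb1 (chr12:31265234-31329644) was at 1176 and 895 in skin, 2499 and 2381 in MC38 cells, 1974, 1826 and 2321 in wild-type day 23 tumors, 2607, 2820 and 2179 at day 46, 3014, 2384 and 2282 in RAG1-/- day 13 tumors and 2442, 2836 and 2578 at day 23. Tumors lay on both sides of MC38 cells (log2 -0.01, SE 0.14, adjusted p = 0.954) and all above skin (1.23, SE 0.15, adjusted p = 5.42e-06). Its share of laminin beta reads was 44.8% ± 8.97 in skin (SD, n = 2), 95.2% ± 0.0327 in MC38 cells (n = 2) and 94.3% ± 1.54 in tumors (n = 12).

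Lamc1 (chr1:153218922-153332786) was at 703 and 669 in skin, 1142 and 1152 in MC38 cells, 1013, 896 and 1152 in wild-type day 23 tumors, 1371, 1211 and 729.5 at day 46, 1153, 809 and 1015 in RAG1-/- day 13 tumors and 806, 1243 and 1019 at day 23. Its difference from skin was 0.57 in tumors (SE 0.21, adjusted p = 0.0306, and 0.132 or 0.184 without skin replicate 1 or 2) and 0.74 in MC38 cells (SE 0.13, adjusted p = 0.0061, and 0.0679 or 0.0698 without MC38 replicate 1 or 2).

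Lama3 and Lamb3, chains of the epidermal laminin, were high in skin and near 0 in the other groups. Lama3 was at 283 and 324 in skin, 0 and 3.91 in MC38 cells and 0.852 to 11.8 in tumors, and Lamb3 was at 488 and 653 in skin, 0 in MC38 cells and 0 to 18.2 in tumors. Both were lower in tumors than in skin, with differences of -6.1 (SE 0.61, adjusted p = 8.87e-07) and -7.64 (SE 1, adjusted p = 1.32e-05) on the log2 scale. Lamb2, of vessel and neuromuscular basement membrane, was at 636 and 780.2 in skin, 125 and 120.2 in MC38 cells and 81 to 181 in tumors. Lamc3 was at 40.2 and 21.7 in skin and had no read in MC38 cells and 8 of the 12 tumors.

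The 2 nidogens differed in pattern. Nid1 (chr13:13437551-13512269) was at 779.6 and 824 in skin, 529 and 531 in MC38 cells and 309 to 749 in tumors (median 471), which surrounded MC38 cells (log2 -0.09, SE 0.23, adjusted p = 0.819). Every tumor was below skin (log2 -0.69, SE 0.24, adjusted p = 0.0224, and 0.113 or 0.157 without skin replicate 1 or 2). Nid2 (chr14:19751265-19811787) was at 163 and 102 in skin, 18.8 and 20.5 in MC38 cells and 102 to 267 in tumors (median 163). Every tumor exceeded both MC38 libraries, with a log2 difference of 3.03 (SE 0.29, adjusted p = 1.98e-07). Of the last 500 exonic bases of Nid2, 87.4% lie opposite exons of Rtraf, and the strand setting of the counting is not given in the sources used here, so the 2 genes cannot be told apart.

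Genes that work with these receptors and matrix proteins were counted from lists. Of 24 tested genes of talin, kindlin and focal adhesion proteins, 7 were higher and 1 was lower in tumors than in MC38 cells (18.2% and 9.43% of all genes tested), with a median log2 difference of 0.2. The most abundant, Actn1, an actin crosslinker, differed by 0.09 (adjusted p = 0.692). Of 15 integrin ligands, 11 were higher and 1 was lower (median 3.16), among them Fn1 (3.16, adjusted p = 2.81e-07), Vcam1, a ligand of Itga4 integrins (1.28, adjusted p = 9.33e-05) and the matricellular Postn (8.94, adjusted p = 2.18e-09), while Spp1, the osteopontin gene, gave -0.7 (adjusted p = 0.127). Of 18 other basement membrane genes, 10 were higher and 1 was lower (median 0.96). Sparc, the most abundant of them, was at 7839.9 and 8084 in MC38 cells and at 12458 to 26493 in tumors. In skin it was at 99841 and 73751. The type IV collagen genes Col4a1 (0.11, adjusted p = 0.709) and Col4a2 (-0.13, adjusted p = 0.715) did not pass the test, as was the case for Lamb1, Lamc1 and Nid1. Against skin, 3 of 20 tested basement membrane genes were higher in tumors and 12 were lower (24.4% and 36.3% of all genes). Both collagen genes were among the higher, by 1.39 (adjusted p = 5.09e-05) and 1.12 (adjusted p = 0.00155).

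Whether the adaptive immune system changed these genes in the tumors was asked by comparing hosts. Over both days of each host, 1 of 32 tested members, Itgb5, was higher in wild-type than in RAG1-/- tumors (0.570% of all 14746 genes were higher) and 0 were lower (0.142% of all genes). At an unadjusted p under 0.05, 7 of the 32 members and 1682 of all 14746 genes differed, and edgeR and DESeq2 also called 0 members lower. The days differed between hosts (23 and 46 against 13 and 23). Wild-type tumors had Itgb5 levels of 2337, 1439 and 1913 at day 23 and 1507, 1443 and 2113 at day 46, and RAG1-/- tumors had 1254, 1094 and 1089 at day 13 and 581, 934 and 883 at day 23. Every wild-type tumor was above every RAG1-/- tumor, a separation shown by 0.651% of all genes, and 0 members lay the other way (0.332% of all genes). The log2 difference was 0.89 (SE 0.15, adjusted p = 0.011, limma), and with each tumor left out in turn it was 0.79 to 0.99 (adjusted p 0.00773 to 0.0351). It was 0.93 with adjusted p = 0.124 without RAG1-/- day 13 tumors 1 and 3, and adjusted p = 0.0854 without the trend of variance on level. By edgeR on the recovered reads adjusted p was 0.0129, and by DESeq2 it was 7.65e-06.

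At the shared day 23, Itgb5 was again the member called, with means of 1896 ± 449 and 799.6 ± 191 (SD, n = 3 each) and a log2 difference of 1.25 (SE 0.21, adjusted p = 0.0233), where 0.231% of all genes were higher and 0.0475% lower. With 3 tumors a group, the call was lost without wild-type tumor 1 (1.08, adjusted p = 0.118) or 3 (1.23, adjusted p = 0.107), and without RAG1-/- tumor 1 (1.03, adjusted p = 0.164) or 2 (1.37, adjusted p = 0.0522). The day 23 values share these tumors with the comparison over both days. Without the trend of variance, adjusted p was 0.127.

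**Figure D4:**
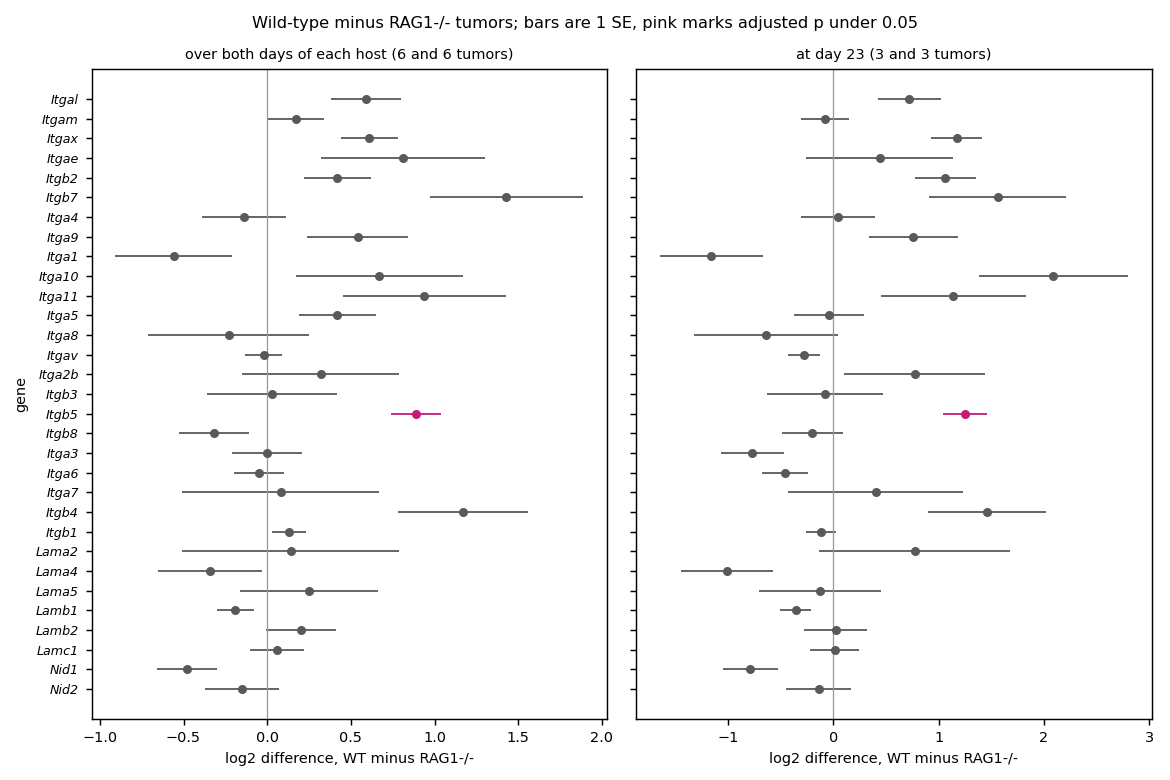
Log2 difference of wild-type minus RAG1-/- tumors for 31 members, over both days (left) and at day 23 (right); points are estimates and bars 1 SE, with pink for adjusted p under 0.05. Itgb5, at 0.89 and 1.25, is the only plotted member in pink.

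Other members stood apart at day 23 without passing the test. In 8 members all 3 wild-type tumors were above all 3 RAG1-/- tumors (8.50% of all genes) and in 4 they were below (7.62% of all genes). Itgax had the next smallest p, with 1030.4, 701 and 1144 against 302, 411 and 580.2 (log2 1.17, SE 0.24, adjusted p = 0.0571), and DESeq2 gave adjusted p = 0.0019. Its adjusted p was 0.0432 without wild-type tumor 2 and 0.0179 without RAG1-/- tumor 3. Itgb2, at 534, 425 and 229.8 against 196, 147 and 196, gave 1.06 (SE 0.29, adjusted p = 0.15). It passed in 1 of 17 alternatives, DESeq2 (adjusted p = 0.0154). Also above were Itgal, Itgb4, Itga10 and Itga11, with adjusted p of 0.269 to 0.574, and those below were Itga3, Itgav, Lamb1 and Nid1, with adjusted p of 0.248 to 0.527. Nid1 was at 451, 309 and 344 against 693, 749 and 482 (log2 -0.79, SE 0.26). Over both days, Itgax gave 0.61 (SE 0.17, adjusted p = 0.144) and Nid1 -0.48 (SE 0.18, adjusted p = 0.317). Itgb7 gave 1.43 (SE 0.46, adjusted p = 0.228, and 0.0113 by DESeq2), with overlapping ranges of 27 to 206 in wild-type and 18.3 to 48.9 in RAG1-/- tumors. Itgb4 gave 1.17 (SE 0.39, adjusted p = 0.245) and Itgal 0.59 (SE 0.21, adjusted p = 0.288).

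Over both days, marker lists compared as follows, where 0.570% of all genes were higher in wild-type tumors and 0.142% were lower. Of 7 tested T cell markers, 6 were higher in wild-type tumors (2 at day 23), as was Igkc, and the summed T cell level was 88 to 280.3 in wild-type and 5.24 to 40 in RAG1-/- tumors. None of 5 pan-leukocyte, 9 monocyte and macrophage, 7 endothelial and 7 fibroblast markers was called. Of 6 dendritic cell markers, 2 were tested and 0 called, and the others had a mean under 5. Of these untested markers, Xcr1 was at 3.17 to 19.9 in wild-type tumors and 0 in every RAG1-/- tumor. Clec9a was at 0 to 22.9 and 0 to 0.442, and Flt3 and Cd209a also overlapped between hosts. In the smooth muscle and pericyte list, 1 of 7 was called over both days and 0 at day 23. The called gene, Cspg4, was at 464 ± 80.3 in wild-type and 245 ± 38.3 in RAG1-/- tumors (SD, n = 6 each), and was also read in MC38 cells at 351 and 332. Keratinocyte RNA was highest in wild-type day 23 tumor 2. The part of these cells in the host differences was not tested. Among the lists of partner genes, over both days, 2 of 24 focal adhesion genes were higher in wild-type tumors, the talin Tln2 (0.61, SE 0.12, adjusted p = 0.0314) and the scaffold Nedd9 (0.69, SE 0.14, adjusted p = 0.0329), and 1 of 18 basement membrane genes, Fbln2, a fibulin (1.36, SE 0.24, adjusted p = 0.0124). None of 15 integrin ligands was called. At day 23, limma called 0 genes of these 3 partner lists, and Tln2, Nedd9 and Fbln2 gave adjusted p of 0.177, 0.176 and 0.165.

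**Figure D5:**
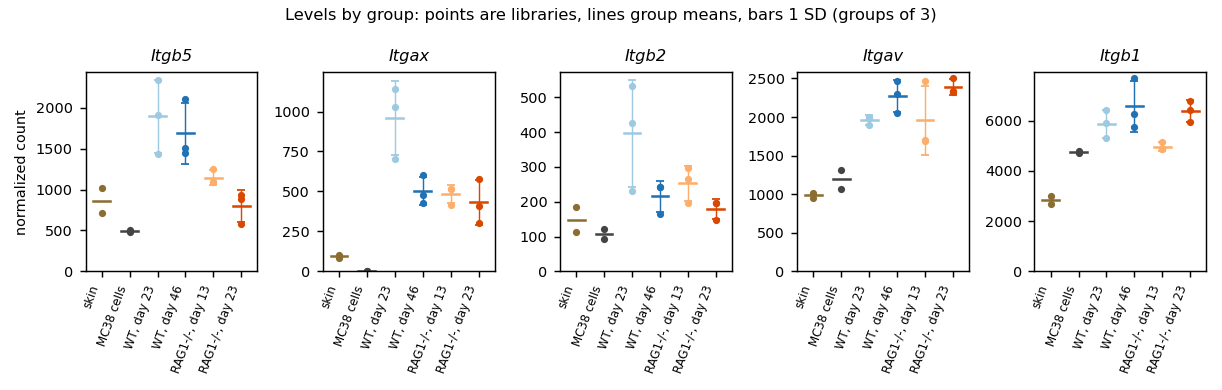
Normalized counts of 5 members in each library by group (linear axes from 0); points are libraries, lines group means and bars 1 SD in groups of 3. Itgb5 is at 1439 to 2337 in wild-type and 581 to 1254 in RAG1-/- tumors, and Itgax is highest at wild-type day 23.

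No member changed with time within a host by the test. For wild-type tumors of day 46 minus day 23, limma called 0 of 14746 genes, with 1261 at an unadjusted p under 0.05, 4 of them members. On the recovered reads, edgeR called 0 genes and DESeq2 25 higher and 16 lower, none of them a member. In 4 members day 46 lay wholly above day 23 (7.02% of all genes) and in 1, Itgax, below (5.44% of all genes). Itgax was at 477, 603 and 428 against 1030.4, 701 and 1144 (log2 -0.91, SE 0.24, adjusted p = 0.385). Lama4 was at 85, 189 and 134 against 74.5, 34.1 and 46 (log2 1.38, SE 0.44, adjusted p = 0.444), and Itga3 at 133, 189 and 284 against 122, 69 and 109 (0.98, SE 0.3, adjusted p = 0.422).

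For RAG1-/- tumors of day 23 minus day 13, limma again called 0 genes, with 1722 at an unadjusted p under 0.05, 7 of them members. By edgeR no gene was called, and by DESeq2 90 were higher and 116 lower, none of them a member. In 4 members day 23 lay above day 13 (9.48% of all genes) and in 6 below (9.92% of all genes). Itgb1 stood at 4880, 4861 and 5159 at day 13 and 5934, 6432 and 6784 at day 23 (log2 0.36, SE 0.14, adjusted p = 0.345), and Itgb5 stood at 1254, 1094 and 1089 and then at 581, 934 and 883 (-0.55, SE 0.21, adjusted p = 0.339). Itga10 gave -2.24 (SE 0.71, adjusted p = 0.263) on 13.3 to 25.7 normalized counts at day 13 and 1.31 to 10.6 at day 23. Day 13 tumors 1 and 3 were rich in muscle RNA, while tumor 2, with Itga10 at 13.3, had Acta1 at 152. The part of muscle RNA in this difference was not tested. The change with time was also set between hosts, as the later minus the earlier day, and limma called 0 genes, with 1279 at an unadjusted p under 0.05, 3 of them members, and a smallest adjusted p among members of 0.4.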

How the data were processed

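Per the labels and the study's methods, the authors ran QuantSeq 3′ libraries on an Ion Proton instrument, removed adapters and low-quality bases with cutadapt and Trimmomatic, dropped reads under 22 nucleotides, aligned them to mm10 with STAR and then Bowtie2, and counted genes with HTSeq. Strand setting, annotation and tool versions are not given in the sources used here. The deposited signal is the normalized count, counts divided by DESeq2 size factors, and 100% of values were whole multiples of 1 read per library, from which reads were recovered. Members and gene lists were chosen with earlier results of these data known.

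Tests used limma 3.58.1 (R 4.3.3, variance trend) on log2(normalized count + 1), keeping genes whose mean over the fitted libraries was 5 or more, with Benjamini-Hochberg adjustment over all genes and a threshold of 0.05. Fold changes on this scale understate low genes. All 4 tumor groups shared 1 fit in comparisons among tumors. Alternatives were other pseudocounts, filters, scalings, libraries and fits, a replicate block, and edgeR 4.0.16 and DESeq2 1.42.0 on recovered reads. Shares are of the normalized counts of a chain class within a library. Bounds use 3 reads per library, which cover counting error only, as do all depth limits. Any member could be named. Every library is given for Itgb5, called among tumors, and for Itgax, Itgb1, Itgav, Lama4, Lamb1 and Lamc1. Genes named from the lists of partner genes include the most abundant, whereas the marker genes named are not always the most abundant of their list. Tln2, Nedd9, Fbln2 and Cspg4 were named after their values were seen, as was the alternative without 2 muscle-rich tumors. Per the methods, each tumor gave a piece to RNA isolation, but the labels tie no library to an animal or culture, so p-values measure the spread between these samples, which may be technical. Positions are from GENCODE M21 (GRCm38), matched by symbol for 40 of 40 members, and promoters from RefSeq. A further 6 columns, of anti-PD-L1 and IgG2b tumors, matched no label and were not used. Results of 1 member are not reported here, though it is counted among the members.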

Additional observations from a re-analysis of the deposited data

How the results depend on the processing

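No log2 difference past an unadjusted p under 0.05 changed sign in any alternative. Of 1879 refits of the 83 called gene results, 1740 kept the call and 139 lost it. Counts of members changed as follows. Scaled to the same total, 5 members were higher in MC38 cells than in skin, against 3, and 4985 of all genes, against 3482. With RAG1-/- tumors only, 1 member was lower than in MC38 cells, against 0, and 6 were higher than in skin, against 10. Of all genes, 1111 were then lower than in MC38 cells, against 1387, and 3879 higher than in skin, against 3968. Without the variance trend, 0 members differed between hosts over both days or at day 23, against 1 each, and DESeq2 called 4 in each. For all genes, DESeq2 called 194 higher and 89 lower over both days (limma 84 and 21) and 158 and 81 at day 23 (34 and 7). Without the trend, limma called 41 higher and 7 lower over both days and 12 and 3 at day 23. Leaving out 1 library at a time gave 1 to 3 members higher and 19 to 26 lower in MC38 cells than in skin, 11 to 17 higher in tumors than in MC38 cells, 6 to 10 higher and 13 to 23 lower in tumors than in skin, 1 to 2 higher in wild-type tumors over both days and 0 to 2 at day 23. With 1 tumor left out, all genes higher in wild-type tumors numbered 57 to 140 over both days and 4 to 55 at day 23. The causes of these moves were not tested. Whether replicate numbers pair the tumors could not be decided, since no chance level was computed for the correlations. Of 18 same-numbered pairs, 3 had a correlation of deviations over 0.1 (-0.24 to 0.25, and -0.21 to 0.2 in other pairs). Of 12 tumors, 6 correlated best with their own number. With the replicate block, 15 members were higher in tumors than in MC38 cells, against 17, and 2534 of all genes, against 2679. In wild-type tumors 1 member was higher over both days and at day 23, as without the block. The floor of 1.33 to 6.38 normalized counts limits statements on members near 0.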
